A study of Mus musculus with 12 samples.

Results

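T cells in small clones were examined, that is, cells whose T cell receptor (TCR) beta chain was found in 2 to 4 cells of the same library. Cells with exactly 1 distinct beta (TRB) chain and 1 or 2 alpha (TRA) chains were usable. A lineage joined usable cells of 1 library whose TRB had an identical V segment, J segment and CDR3 base sequence, and members were chosen by the measured number of cells in their lineage. There were 1409 such cells in 580 small lineages, out of 19115 usable cells. Of the remaining cells, 9725 carried a TRB seen once and 7981 belonged to 281 lineages of 5 or more cells. The T cells came from subcutaneous tumours grown from MC38 colon carcinoma cells, a p53 knockout derivative to which the labels assign a p53 substitution in conflicting notations. Hosts were C57BL/6 mice (genotype label C57BL/6J) of 6 to 8 weeks, inoculated with 300000 cells each. On day 10 after engraftment, at a tumour size of about 50 to 100 mm³, LNP-Ctrl or LNP-P20-mAb was given once into the tumour at a dose of 40 µg, and viable CD45+ leukocytes were later sorted, about 10000 per sample. TCR libraries numbered 3 per treatment. Gene expression samples of the series were not analysed here. Separate animals are not stated as the source of the libraries, and a p-value therefore reflects library-to-library spread, which may be technical.

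Each developing T cell builds its beta chain first, by joining a V, a D and a J segment with random loss and addition of bases at the joints. It then divides several times before each daughter joins its own alpha V and J segments. Cells that share the beta chain and the alpha chain are therefore usually descendants of 1 mature T cell, whereas cells that share only the beta chain can be daughters of 1 thymic precursor or the product of separate joining events. The alpha locus is rearranged on both chromosomes, so a T cell can carry a pair of productive alpha chains. CDR3, the loop across the joint, is the part of the chain that differs most between receptors.

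LNP-P20-mAb 1 and 2 stood apart from the other libraries because they held many of the same lineages. Of the small lineages of LNP-P20-mAb 1, 27 of 48 (56.2%) were found in LNP-P20-mAb 2, and 33 of 43 (76.7%) of LNP-P20-mAb 2 were found in LNP-P20-mAb 1. In every one of these lineages a TRA chain was shared as well. Only 7 cell barcodes were common to both libraries, 1 of them with the same TRB, while the other 14 pairs of libraries had 6 to 22 barcodes in common, none with the same TRB. In those 14 pairs 0 to 3 small lineages of a library (0% to 2.68%) recurred, 18 in all, and 1 of these shared a TRA. Several results, though not the values of each segment, are therefore also given with these libraries joined or averaged. The libraries held 5050 to 9982 chains and 85835 to 145847 unique molecular identifiers (UMIs, which count captured transcripts), and every one of the 48792 chains was TRA or TRB. No gamma-delta or immunoglobulin chain was present among them.

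The following pairs of chains show what a small lineage looks like. In each library they are those of the lineage of 4 cells with the most TRB UMIs and a TRA in all cells. Capitals mark the bases that neither the V nor the J segment's usual end accounts for, estimated from the chains themselves.
LNP-Ctrl 1 TRBV5, TRBJ2-1: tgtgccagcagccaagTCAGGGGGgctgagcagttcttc
LNP-Ctrl 1 TRAV3N-3, TRAJ26: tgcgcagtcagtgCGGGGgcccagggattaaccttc
LNP-Ctrl 2 TRBV10, TRBJ1-4: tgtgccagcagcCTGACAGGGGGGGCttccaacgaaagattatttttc
LNP-Ctrl 2 TRAV16, TRAJ37: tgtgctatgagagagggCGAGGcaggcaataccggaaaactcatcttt
LNP-Ctrl 3 TRBV16, TRBJ1-4: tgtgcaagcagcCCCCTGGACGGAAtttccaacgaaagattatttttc
LNP-Ctrl 3 TRAV16N, TRAJ23: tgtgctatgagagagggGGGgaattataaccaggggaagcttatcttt
LNP-P20-mAb 1 TRBV13-3, TRBJ1-4: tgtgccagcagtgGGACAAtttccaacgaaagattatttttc
LNP-P20-mAb 1 TRAV12N-2, TRAJ22: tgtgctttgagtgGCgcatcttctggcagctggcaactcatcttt
LNP-P20-mAb 2 TRBV13-1, TRBJ1-1: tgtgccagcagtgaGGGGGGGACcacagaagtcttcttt
LNP-P20-mAb 2 TRAV10N, TRAJ22: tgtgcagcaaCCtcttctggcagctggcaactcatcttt
LNP-P20-mAb 3 TRBV1, TRBJ1-1: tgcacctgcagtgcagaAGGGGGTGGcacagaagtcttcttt
LNP-P20-mAb 3 TRAV7D-2, TRAJ7: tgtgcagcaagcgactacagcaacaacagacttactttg

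The 4 cells of the LNP-Ctrl 1 lineage had 39, 134, 34 and 59 TRB UMIs, and all carried the TRA printed under it. Those of the LNP-P20-mAb 3 lineage had 45, 19, 42 and 13 TRB UMIs and carried a second TRA (TRAV6D-6, TRAJ27) in all cells as well. None of the 6 TRB chains had a named D segment, and each was joined to 1 or 2 TRA chains that all 4 cells shared.

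A 2nd set shows 1 TRB joined to different TRA chains. In LNP-Ctrl 2, 3 cells carried the same TRB, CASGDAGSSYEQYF in amino acids, with 2 TRA chains each and 6 distinct TRA chains in all. This was the small lineage with the most distinct TRA chains, and only 4 of the 42 bases of its TRB lay between the V and J ends.
LNP-Ctrl 2 TRBV12-2+TRBV13-2, TRBJ2-7: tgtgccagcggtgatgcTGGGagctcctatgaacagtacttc
its TRAV12-2, TRAJ31: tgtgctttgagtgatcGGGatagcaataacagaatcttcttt
its TRAV12D-3, TRAJ13: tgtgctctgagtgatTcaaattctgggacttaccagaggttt
its TRAV14-2, TRAJ21: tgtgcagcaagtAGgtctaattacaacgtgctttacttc
its TRAV14N-3, TRAJ21: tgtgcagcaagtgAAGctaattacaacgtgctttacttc
its TRAV4N-3, TRAJ9: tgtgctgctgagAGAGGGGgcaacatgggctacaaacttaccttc
its TRAV7-3, TRAJ31: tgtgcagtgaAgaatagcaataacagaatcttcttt

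Small lineages held a modest share of the T cells in every library. LNP-Ctrl 1, 2 and 3 held 257, 396 and 252 member cells, while 112, 119 and 273 were found for LNP-P20-mAb 1, 2 and 3. These were 7.71%, 10.1% and 6.74% of usable cells in LNP-Ctrl, against 3.43%, 5.90% and 9.60% in LNP-P20-mAb, and the groups overlapped. The exact binomial 95% intervals, which cover counting error only, ran from 2.83% to 4.12% for the lowest library and from 9.17% to 11.1% for the highest. At an equal 2016 cells per library the expected shares were 8.32%, 8.66% and 5.42% in LNP-Ctrl, against 4.12%, 5.90% and 11.2% in LNP-P20-mAb. Size was the rule that chose the members, so these shares are a description. Among cells with a repeated TRB, by contrast, small lineages held 15.2%, 38.0% and 55.3% in LNP-Ctrl, against 3.98%, 6.95% and 16.3% in LNP-P20-mAb. LNP-P20-mAb 3 thus lay just above LNP-Ctrl 1.

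**Figure D1:**
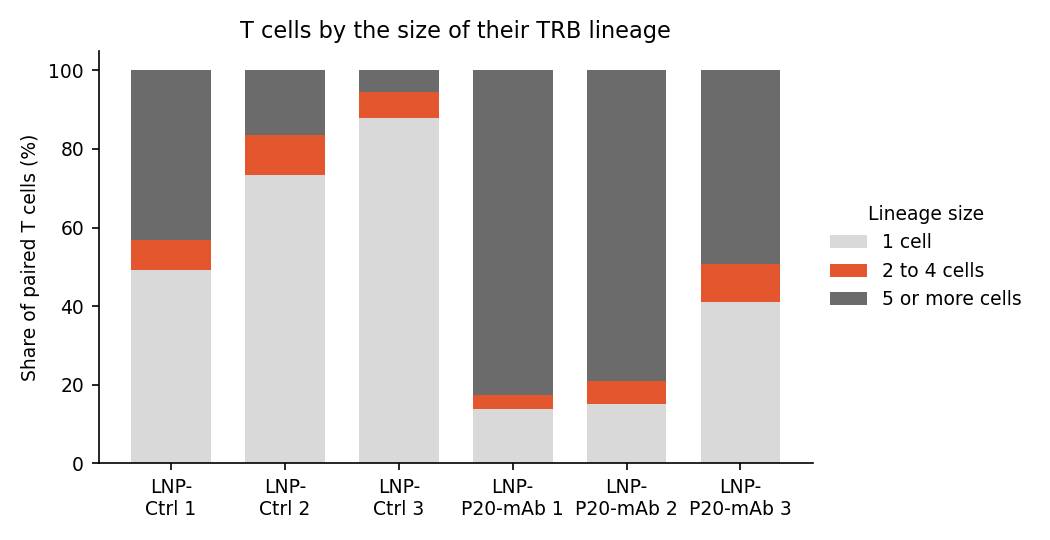
Share of usable T cells (vertical axis, %) in TRB lineages of 1 cell, 2 to 4 cells and 5 or more cells, 1 bar per library. The small class takes 3.43% to 10.1% of each bar, while the classes on either side of it vary far more.

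Most small lineages were pairs. Over all libraries 389 had 2 cells, 133 had 3 and 58 had 4, and just outside the rule 41 lineages had 5 cells. Lineages of 4 numbered 15, 13 and 6 in LNP-Ctrl, against 5, 11 and 8 in LNP-P20-mAb, and lineages of 5 numbered 7, 8 and 1 against 5, 5 and 15. When LNP-P20-mAb 1 and 2 were joined and lineages formed over both, 75 small lineages with 175 cells remained, 3.32% of their cells.

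Cells that shared a beta chain also shared an alpha chain in nearly all small lineages. In 549 of 580 lineages (94.7%, exact 95% interval 92.5% to 96.3%) at least 1 TRA, with the same V, J and CDR3 bases, was found in every cell. By library it was 97.1%, 93.3% and 92.7% in LNP-Ctrl, against 95.8%, 95.3% and 95.5% in LNP-P20-mAb. The groups overlapped, at 94.4% ± 2.37 in LNP-Ctrl, against 95.6% ± 0.244 in LNP-P20-mAb (SD, n = 3 each; two-sided exact permutation p = 0.4, adjusted over 8 measures p = 0.8; the smallest p of 20 assignments is 0.1). With LNP-P20-mAb 1 and 2 joined as 1 sample, 71 of 75 small lineages (94.7%) had a TRA in all cells. By size, agreement was 94.3% in lineages of 2 cells, 97.0% of 3 and 91.4% of 4. As background, pairs of cells with different TRB seen once shared a TRA in 0% to 0.0108% of cases by library.

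The share of pairs of cells with a common TRA was compared between small lineages and those of 5 or more cells, and did not pass after adjustment. Within small lineages 98.6%, 94.2% and 92.8% of pairs did so in LNP-Ctrl, with 97.6%, 96.7% and 96.3% in LNP-P20-mAb, beside 99.2% to 100.0% in the larger lineages. It was lower in 6 of 6 libraries, and the mean difference was -3.59 ± 2.25 percentage points (SD, n = 6). The two-sided exact sign-flip permutation test gave p = 0.03125, the smallest 64 flips can give, and this did not pass after adjustment over the 7 measures of the family (p = 0.146). A single measure of 7 at that smallest p cannot pass, so the adjusted value does not show that the share was equal. A large lineage supplies many pairs and so weighs heavily in this share. Counted by lineage, the order was mostly the other way. A TRA in all cells was found in 92.5%, 88.2% and 100.0% of lineages of 5 or more in LNP-Ctrl, with 90.0%, 94.2% and 93.8% in LNP-P20-mAb, and small lineages were higher in 5 of 6 libraries. This count asks for the chain in more cells of a larger lineage, and it was not tested.

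The 31 lineages without a TRA in all cells were mostly pairs of cells with nothing in common but the TRB. There were 22 of 2 cells, 4 of 3 and 5 of 4. No TRA was found in any pair of cells in 23, and a TRA was shared by some of the cells in 8. Their TRB middles, the bases printed in capitals above, had a median of 8 bases against 10 in agreeing lineages. The mean within-library difference was -1.16 ± 2.63 bases (SD, n = 6), lower in 4 of 6 libraries (exact sign-flip permutation p = 0.3125), so that it did not exceed the spread between libraries. The difference was of the opposite sign in LNP-P20-mAb 1 and 2, which had 2 such lineages each.

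In 4 of the 31 lineages the differing TRA chains used the same V and J segments. The 3 pairs of equal length are printed with the differing bases in capitals, since a single lineage with nearly equal TRA chains is unlike the lineage of LNP-Ctrl 2 printed above.
LNP-Ctrl 3 TRAV14N-2, TRAJ15, in 3 cells: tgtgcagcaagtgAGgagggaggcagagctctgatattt
LNP-Ctrl 3 TRAV14N-2, TRAJ15, in 1 cell: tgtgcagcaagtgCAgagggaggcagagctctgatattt
LNP-P20-mAb 2 TRAV9-2, TRAJ27, in 3 cells: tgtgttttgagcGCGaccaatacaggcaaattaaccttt
LNP-P20-mAb 2 TRAV9-2, TRAJ27, in 1 cell: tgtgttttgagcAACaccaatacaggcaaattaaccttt
LNP-P20-mAb 3 TRAV4-4-DV10, TRAJ50, in 1 cell: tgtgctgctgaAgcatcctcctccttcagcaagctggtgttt
LNP-P20-mAb 3 TRAV4-4-DV10, TRAJ50, in 1 cell: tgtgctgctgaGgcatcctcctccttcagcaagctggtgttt

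The first pair differed by 2 bases and 1 residue (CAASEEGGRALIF and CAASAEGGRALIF), beside the TRB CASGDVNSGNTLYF. The pair of LNP-P20-mAb 2 differed by 3 neighbouring bases and 1 residue (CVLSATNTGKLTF and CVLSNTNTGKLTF), beside a TRBV10 chain. The pair of LNP-P20-mAb 3 differed by 1 base and 0 residues (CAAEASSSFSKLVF), beside the TRB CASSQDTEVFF. The 4th lineage, of LNP-Ctrl 1, joined TRBV13-3 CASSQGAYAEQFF to TRAV12N-2 and TRAJ15 chains of 39 and 36 bases. In a lineage of LNP-Ctrl 2 (TRBV13-1 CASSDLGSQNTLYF), of 4 cells, 2 of the 3 TRA chains used TRAJ18.

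A second TRA chain was found in 94 of the 549 agreeing lineages (17.1%). Both TRA chains were present in all cells of 60 of these lineages, and the second was missing from some cells of the other 34. In these 34, cells with both chains had a median of 15 TRA UMIs (47 cells) and cells with 1 chain a median of 6 (44 cells). The sum over both chains thus moved with the number of chains detected, and the part of detection in the missing chain was not tested. By library, 13.2%, 18.2% and 10.7% of member cells carried 2 TRA chains in LNP-Ctrl, against 8.93%, 23.5% and 13.2% in LNP-P20-mAb. The groups overlapped (14.0% ± 3.80 and 15.2% ± 7.51, SD, n = 3 each; exact permutation p = 0.9), and without LNP-P20-mAb 2, the highest library, the difference had the opposite sign (-2.98 points in place of 1.17).

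A lineage that was small in LNP-P20-mAb 1 or 2 was often of another size in the other of these libraries. Of the 48 small lineages of LNP-P20-mAb 1, 21 were absent from LNP-P20-mAb 2, 6 had 1 cell there, 15 had 2 to 4 and 6 had 5 or more, up to 17 cells. Of the 43 of LNP-P20-mAb 2, 10 were absent from LNP-P20-mAb 1, 5 had 1 cell, 15 had 2 to 4 and 13 had 5 or more, up to 28 cells. In 15 lineages, therefore, both libraries put the same TRB in the small class.

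**Figure D2:**
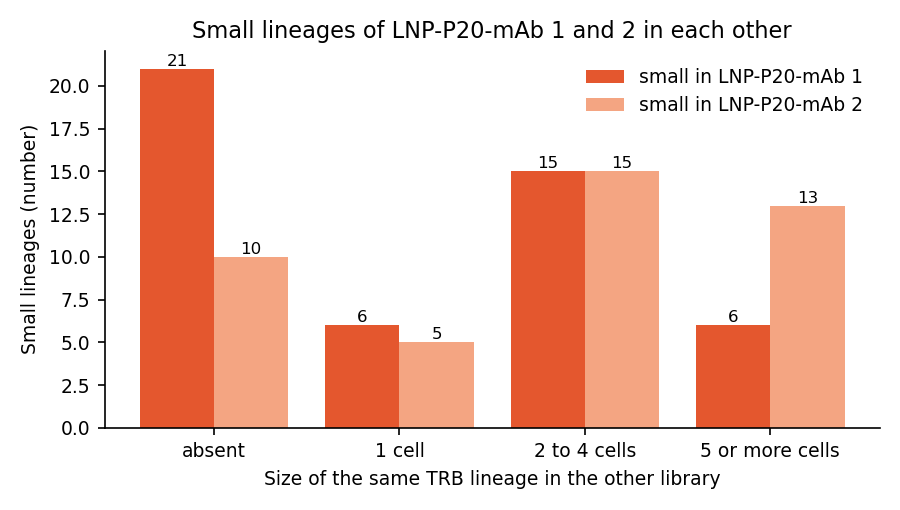
Number of small lineages (vertical axis) of LNP-P20-mAb 1 and of LNP-P20-mAb 2 by the size of the same TRB lineage in the other library (horizontal axis). Of LNP-P20-mAb 1, 21 were absent from the other library, and of LNP-P20-mAb 2, 13 had 5 or more cells there.

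Receptors of small lineages had near twins in other libraries more often than receptors seen in 1 cell. A receptor was called alike where another library held one with the same TRBV and TRBJ and a TRB CDR3 of equal length with at most 1 residue different, and with a TRA of the same V family and J that met the same condition. LNP-P20-mAb 1 and 2 were not counted as partners of each other. The measure was chosen after the data were seen. In LNP-Ctrl 1, 2 and 3, 2.91%, 7.32% and 10.9% of small lineages had an alike receptor, against 0.976%, 0.694% and 0.792% of receptors of 1 cell. In LNP-P20-mAb 1, 2 and 3 the values were 14.6%, 11.6% and 6.25% against 2.66%, 2.97% and 1.28%. Small lineages were higher in 6 of 6 libraries, by 7.37 ± 3.63 percentage points (SD, n = 6; two-sided exact sign-flip permutation p = 0.03125, the smallest of 64 flips). With identical amino acids required in both chains the difference was 3.00 ± 2.33 points, higher in 6 of 6 (exact sign-flip permutation p = 0.03125). A small lineage could match through a TRA of any of its cells, which gives it more chances than 1 cell has. With only TRA chains found in 2 or more cells of a lineage, the difference was 6.74 ± 3.93 points, higher in 6 of 6 (exact sign-flip permutation p = 0.03125). An alike pair counts in both of its libraries, so the 6 values are not independent. With LNP-P20-mAb 1 and 2 averaged, 5 values remained, all higher by a mean of 6.79 points, at the smallest p of 32 flips (exact permutation p = 0.0625).

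Lineages of 5 or more cells had alike receptors in 15.1%, 29.4% and 5.88% of LNP-Ctrl, against 11.7%, 13.5% and 13.8% of LNP-P20-mAb lineages. Small lineages were lower than these in 4 of 6 libraries, with a mean difference of -5.96 ± 10.2 points that did not exceed the spread (exact sign-flip permutation p = 0.25). Treatments overlapped, at 7.05% ± 4.01 of small lineages in LNP-Ctrl, against 10.8% ± 4.22 in LNP-P20-mAb (SD, n = 3 each; exact permutation p = 0.4).

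**Figure D3:**
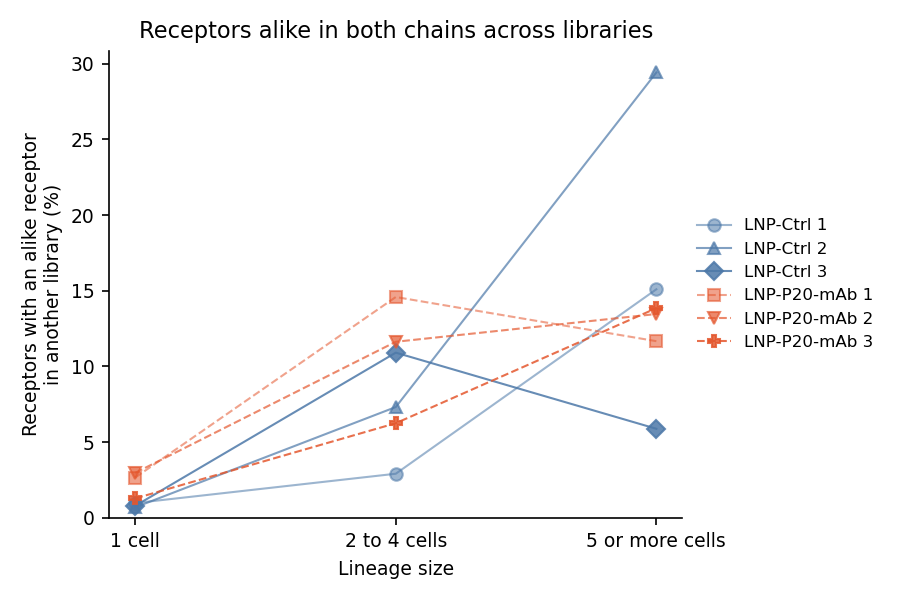
Share of receptors with a near twin in another library (vertical axis, %) by lineage size (horizontal axis), 1 line per library. The 6 small-lineage values, 2.91% to 14.6%, each lie above the value for receptors of 1 cell in the same library, while the order against larger lineages varies.

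In all, 46 of the 580 small lineages had an alike receptor, against 98 of 9725 receptors of 1 cell. For 24 of the 46 it was in the other treatment, and for 18 it had 5 or more cells. In 16 both chains were identical in amino acids. Of the 84 alike pairs, 32 had the same TRB loop in amino acids, with the same bases in 7, and 48 had the same TRA loop, with the same bases in 26. In 19 pairs both loops were the same in amino acids, and 1 of these was also identical in bases in both chains. That pair was the TRB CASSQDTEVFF with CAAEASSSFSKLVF, in LNP-P20-mAb 3 and LNP-Ctrl 3.

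The receptor found most widely joined TRBV10 and TRBJ2-3 to TRAV9-2 and TRAJ27. Its group of alike receptors held 10 lineages with 37 cells in 5 libraries, of which 4 lineages were small, 3 had 1 cell and 3 had 5 or more. The first and second TRB sequences printed below occurred in both LNP-P20-mAb 1 and 2 and were counted in each. Receptors joined the group through any alike member, so not all are alike to each other. The same TRB amino acids were a small lineage in 3 libraries, the only TRB of which this was true. These were LNP-Ctrl 2 and LNP-P20-mAb 1 and 2, and the latter 2 held many of the same lineages. Capitals mark the middle bases of the TRB chains, which are shown because the same loop was encoded in different ways. The TRA chains below them are printed without such marks.
LNP-Ctrl 2 TRBV10, 4 cells: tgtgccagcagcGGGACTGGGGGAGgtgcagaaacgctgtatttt
LNP-P20-mAb 1 TRBV10, 2 cells: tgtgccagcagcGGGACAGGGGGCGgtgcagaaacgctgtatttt
LNP-P20-mAb 3 TRBV10, 1 cell: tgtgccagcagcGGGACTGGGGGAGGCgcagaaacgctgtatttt
LNP-P20-mAb 3 TRBV10, 6 cells: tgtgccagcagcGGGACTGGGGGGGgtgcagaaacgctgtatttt
LNP-Ctrl 2 TRAV9-2, 4 cells: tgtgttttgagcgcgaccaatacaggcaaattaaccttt
LNP-Ctrl 1 TRAV9-2, 1 cell: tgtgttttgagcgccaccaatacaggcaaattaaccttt
LNP-P20-mAb 3 TRAV9-2, 1 cell: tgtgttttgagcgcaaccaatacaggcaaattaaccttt

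The 3 TRA sequences read the same in amino acids, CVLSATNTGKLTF. Those of LNP-Ctrl 1 and LNP-P20-mAb 3 lay beside another TRBV10 chain of the group, with a loop 1 residue different from the one printed. LNP-P20-mAb 2 held both the first and the second of the TRB sequences, as small lineages of 4 cells each. In LNP-P20-mAb 1 the first sequence had 8 cells. Both lineages of the first sequence in these libraries carried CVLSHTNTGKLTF, in place of the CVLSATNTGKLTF found beside it in LNP-Ctrl 2. The TRB with 6 cells in LNP-P20-mAb 3 was joined to TRAV9-4 and TRAJ27 (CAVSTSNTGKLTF) and was no alike receptor by the rule.

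Other groups of alike receptors in 3 or more libraries numbered 15. LNP-P20-mAb 1 and 2 were counted as separate libraries here, and several of these groups reached 3 libraries only through both of them. A small lineage of LNP-Ctrl 3 with 3 cells (TRBV16 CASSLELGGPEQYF with TRAV7D-2 CAASDYSNNRLTL) resembled lineages of 6, 11 and 5 cells in LNP-P20-mAb 1, 2 and 3, all of them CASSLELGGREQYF with CAATDYSNNRLTL. The TRB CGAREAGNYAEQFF with TRAV7D-2 and TRAJ30 (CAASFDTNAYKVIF) was a small lineage of 2 cells in LNP-P20-mAb 1 and had 468 cells in LNP-Ctrl 1. Receptors of TRBV12-2+TRBV13-2 and TRBJ2-7 with TRAV14 copies and TRAJ45 formed small lineages in LNP-Ctrl 3 (2 and 3 cells) and LNP-P20-mAb 3 (4 cells). Of these 3, the lineages of 2 and of 4 cells had the TRB loop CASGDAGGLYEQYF. Over all libraries, 18 TRB amino acid sequences were a small lineage in 2 or more libraries, and 14 of them only in LNP-P20-mAb 1 and 2.

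The same amino acids written with other bases were also found within a library. Another TRB of this kind was present for 20 of 580 small lineages (3.45%) and 74 of 9725 receptors of 1 cell (0.761%). By library the small-lineage share was 0%, 1.83% and 4.55% in LNP-Ctrl, against 8.33%, 16.3% and 0.893% in LNP-P20-mAb, so that LNP-Ctrl 1 had none and the libraries differed widely. No test was made.

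Usage of segments was compared with receptors of 1 cell in the same library. In small lineages only TRA chains shared between cells of the lineage were counted, whereas each TRA chain of a receptor of 1 cell was counted. Of 82 segments with at least 10 small lineages, 1 (1.22%) differed, TRAV9-2, an alpha V segment with near-identical copies elsewhere in its locus (edgeR quasi-likelihood test with the library as a block, Benjamini-Hochberg adjustment over all 82, threshold 0.05). TRAV9-2 made up 5.26%, 3.87% and 5.17% of the TRA chains of small lineages in LNP-Ctrl, and 2.0%, 8.0% and 5.0% in LNP-P20-mAb. Among receptors of 1 cell the shares were 1.88%, 1.51% and 1.46%, and 1.20%, 1.77% and 2.04%. TRAV9-2 was higher in small lineages in 6 of 6 libraries, by 1.50 ± 0.28 on the log2 scale (SE; edgeR adjusted p = 0.00392). In LNP-P20-mAb 1 the value rested on 1 chain.

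The 30 TRAV9-2 chains of small lineages were diverse but not unrelated. They lay in 30 lineages with 14 TRBV names and 17 TRAJ segments and had 27 different loops in amino acids. TRAJ27 was the commonest partner (7 chains) and TRBV10 the commonest beta segment (7 chains). Of the 30, 6 belonged to the TRBV10, TRBJ2-3 and TRAJ27 combination printed above. Without receptors of that combination the log2 difference was 1.27, and the call was lost (edgeR adjusted p = 0.117). It was also lost when cells were counted in place of lineages (log2 1.54, edgeR adjusted p = 0.0552). In lineages of 5 or more cells TRAV9-2 made up 12 of 331 TRA chains (3.63%), and the libraries differed. It was 3.28% of these chains in LNP-Ctrl 1, 0 of 44 and 0 of 20 in LNP-Ctrl 2 and 3. LNP-P20-mAb 1, 2 and 3 had 5.56%, 3.39% and 5.33%.

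The TRAV9 family as a whole made up 92 of the TRA chains of small lineages (14.6%) and 9.28% of those of receptors of 1 cell, but its members were unequal. TRAV9-4 had 3.49% and 1.92%, with a log2 difference of 0.95 ± 0.37 that did not pass (edgeR adjusted p = 0.297), and TRAV9N-3 had 2.22% and 2.59%. Names ending in D or N before the hyphen denote near-identical copies, between which reads can be split. With the copies' names merged, TRAV9-2 remained the single segment called (log2 1.39, edgeR adjusted p = 0.0070).

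**Figure D4:**
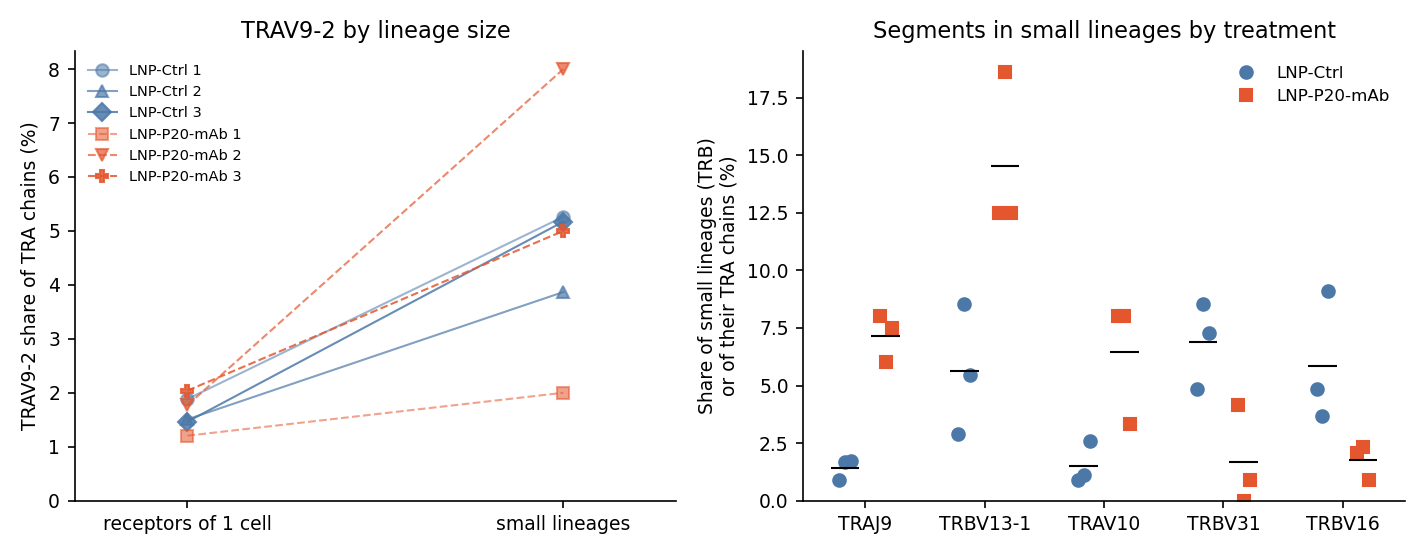
Left, TRAV9-2 as a share of TRA chains (vertical axis, %) among receptors of 1 cell and in small lineages, 1 line per library; it is higher in small lineages in all 6. Right, shares of 5 segments in small lineages (vertical axis, %), with 1 point per library and lines at the group means; TRAJ9 lies at 0.877% to 1.72% in LNP-Ctrl, against 6.0% to 8.0% in LNP-P20-mAb.

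Between treatments no segment of small lineages passed the threshold (0 of 82, 0%; edgeR, 7 at an unadjusted p under 0.05; DESeq2 called 0, with 3 unadjusted). The nearest was TRAJ9, one of the alpha J segments far from the V segments, which late or repeated alpha rearrangements reach. It made up 0.877%, 1.66% and 1.72% of TRA chains in LNP-Ctrl, against 8.0%, 6.0% and 7.5% in LNP-P20-mAb. In counts these were 1, 3 and 2 chains against 4, 3 and 9. The log2 difference was 2.23 ± 0.66 (SE; edgeR adjusted p = 0.0727). With LNP-P20-mAb 1 and 2 merged into 1 sample, 0 of 82 segments passed (edgeR, lowest adjusted p = 0.126).

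TRBV13-1, of the Vβ8 family, was the highest of the TRBV segments, with 2.91%, 8.54% and 5.45% of small lineages in LNP-Ctrl, against 12.5%, 18.6% and 12.5% in LNP-P20-mAb. Its log2 difference was 1.18 ± 0.46 (edgeR adjusted p = 0.214). TRAV10, the highest of the TRAV segments, stood at 1.52% ± 0.928 and 6.44% ± 2.69 of TRA chains (SD, n = 3 each), with a log2 difference of 1.82 ± 0.71 and the same adjusted p from edgeR. TRBV31, the beta V segment that lies downstream of the J segments in inverted orientation, had the lowest value of the TRBV segments. It made up 4.85%, 8.54% and 7.27% of small lineages in LNP-Ctrl, against 4.17%, 0% and 0.893% in LNP-P20-mAb (log2 difference -2.18 ± 0.76; edgeR adjusted p = 0.177). TRBV16 followed at 5.87% ± 2.85 and 1.77% ± 0.767 of small lineages (SD, n = 3 each; log2 difference -1.83 ± 0.79, edgeR adjusted p = 0.343). None of these 4 segments passed after adjustment.

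The remaining segments at either end of the treatment comparison, within each kind of segment, did not pass either. Among TRBV they were TRBV3 (-1.22), TRBV12-2 (0.77) and TRBV12-1 (0.99), and among TRAV TRAV9N-3 (-1.56), TRAV16N (-1.44), TRAV3N-3 (-1.36), TRAV6N-7 (1.09) and TRAV5-4 (1.38), each as a log2 difference. Among TRBJ the ends were TRBJ1-5 (-2.29), TRBJ2-2 (-1.18), TRBJ2-1 (0.60) and TRBJ1-1 (0.72). Besides TRAJ9, the TRAJ ends were TRAJ57 (-1.29), TRAJ32 (-1.17) and TRAJ50 (1.09). TRBJ1-5 was found in 3, 5 and 3 small lineages of LNP-Ctrl and in 0, 0 and 1 of LNP-P20-mAb, and it did not pass (edgeR adjusted p = 0.407).

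Segment lists showed no member past the threshold in either comparison. They covered the Vβ8 family (TRBV13-1 and TRBV13-3 tested) and the Vβ5 family (TRBV12-1 and TRBV12-2). Further lists held beta segments typical of iNKT cells (TRBV1 and TRBV29 tested) and of MAIT cells (TRBV13-3 and TRBV19), and alpha J segments of both ends. The joint name TRBV12-2+TRBV13-2, which names members of the Vβ8, Vβ5 and iNKT lists, was left out of them, so their medians do not cover it. Its log2 difference between treatments was -0.19 ± 0.50 (SE; edgeR adjusted p = 0.923). The median log2 difference between treatments was 0.66 in the Vβ8 family, 0.88 in the Vβ5 family, -0.40 in the iNKT list, 0.10 in the MAIT list, 0.06 in TRAJ2 to TRAJ9 and -0.09 in TRAJ50 to TRAJ58, beside -0.10 over all 82 segments. Against receptors of 1 cell the Vβ5 family lay at -0.58 and the Vβ8 family at 0.33, beside 0.08 over all segments, and neither held a called segment. Of the alpha V segments nearest the J cluster (TRAV17, TRAV18, TRAV19 and TRAV21-DV12), none had enough small lineages to be tested.

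The gap between small lineages and receptors of 1 cell was also compared between treatments, and no segment passed (interaction term, 0 of 82, 0%; edgeR, 6 at an unadjusted p under 0.05; DESeq2 called 0, with 4 unadjusted). TRAJ9 again had the lowest p (log2 2.09 ± 0.58; edgeR adjusted p = 0.149).

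TRB transcript counts of small lineages and of receptors of 1 cell did not differ beyond the spread between libraries. The median number of TRB UMIs per cell was 20, 17 and 17 in small lineages of LNP-Ctrl and 15, 16 and 16 in those of LNP-P20-mAb. For receptors of 1 cell it was 18, 13 and 14 in LNP-Ctrl, and 15, 16 and 17 in LNP-P20-mAb. Small lineages were higher in 3 of 6 libraries, all of them LNP-Ctrl, and this split by treatment was not tested. The mean difference was 1.33 ± 1.97 (SD, n = 6; exact sign-flip permutation p = 0.25). Lineages of 5 or more had 25, 16 and 20.5, and 20, 22 and 19, and small lineages were lower than these in 5 of 6 libraries (mean difference -3.58 ± 2.50 UMIs; exact sign-flip permutation p = 0.0625, adjusted p = 0.146). TRA UMIs showed the same order, with small lineages at a median of 7 to 10 per cell and lower than or equal to larger lineages in 6 of 6 libraries (-1.67 ± 1.75; exact sign-flip permutation p = 0.0625, adjusted p = 0.146). The LNP-Ctrl values of TRB UMIs in small lineages all lay above the LNP-P20-mAb values (18.0 ± 1.73 and 15.7 ± 0.577, SD, n = 3 each), at the smallest p the exact permutation test allows (p = 0.1, adjusted over 8 measures p = 0.8).

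Cells of 1 small lineage resembled each other in TRB UMIs more than unrelated cells did, at values that overlapped those of larger lineages. The median absolute log2 ratio of TRB UMIs between 2 cells of a lineage was 0.72, 0.87 and 0.71 in LNP-Ctrl, against 0.79, 0.68 and 0.76 in LNP-P20-mAb. Between 2 receptors of 1 cell it was 1.00, 1.00 and 0.88, and 0.93, 1.00 and 0.94. It was lower within lineages in 6 of 6 libraries, with a mean difference of -0.20 ± 0.08 (SD, n = 6; two-sided exact sign-flip permutation p = 0.03125, the smallest of 64 flips; the comparison was chosen after the data were seen). With LNP-P20-mAb 1 and 2 averaged it was -0.20 ± 0.06, lower in 5 of 5 values (exact sign-flip permutation p = 0.0625, the smallest of 32 flips). Within lineages of 5 or more the ratio was 0.70, 0.74 and 0.77 in LNP-Ctrl, with 0.69, 0.70 and 0.76 in LNP-P20-mAb, so that small lineages lay above these in 3 libraries and below in 3. Pairs within a lineage share their V segment and CDR3 and come from a class with its own UMI level, and the part of either in the difference was not tested. Treatments overlapped in this measure (exact permutation p = 0.8).

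**Figure D5:**
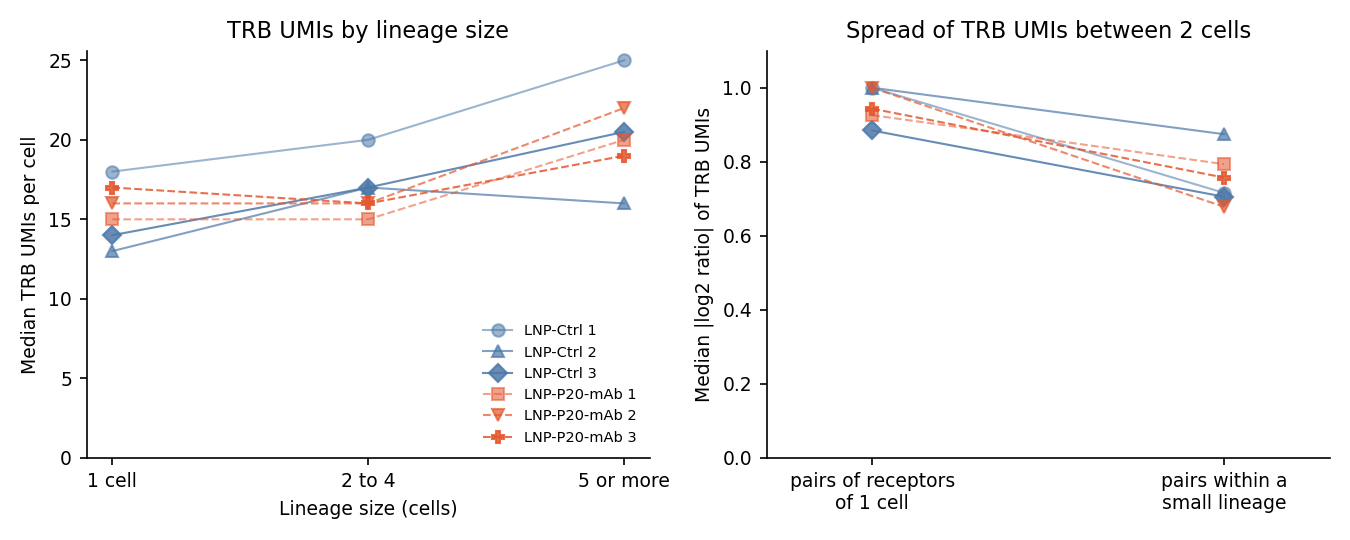
Left, median TRB UMIs per cell (vertical axis) by lineage size (horizontal axis), 1 line per library. Right, median absolute log2 ratio of TRB UMIs (vertical axis) between 2 receptors of 1 cell and between 2 cells of a small lineage; each of the 6 lines falls, and larger lineages, not drawn, lay at 0.69 to 0.77.

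The CDR3 loops of small lineages were of usual length. Mean TRB CDR3 length was 42.4, 41.5 and 41.4 bases in LNP-Ctrl, against 42.1, 41.8 and 42.3 in LNP-P20-mAb, and differed from receptors of 1 cell by -0.07 ± 0.32 bases (SD, n = 6; exact sign-flip permutation p = 0.625). TRBJ2 segments, those of the second beta J cluster, were used by 73.8%, 76.8% and 67.3% of small lineages in LNP-Ctrl, against 66.7%, 69.8% and 68.8% in LNP-P20-mAb, which overlapped (72.6% ± 4.88 and 68.4% ± 1.58, SD, n = 3 each; exact permutation p = 0.3). No D segment was named for 74.8%, 72.6% and 72.7%, and 79.2%, 86.0% and 71.4% (exact permutation p = 0.4). After adjustment none of the 8 measures passed between treatments, and none of the 6 passed against receptors of 1 cell. Between treatments none could pass, as the smallest exact permutation p of 20 assignments is 0.1, so no absence of a difference can be read from this. Against receptors of 1 cell the lowest unadjusted p was 0.25 (exact sign-flip permutation, TRB UMIs).

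Several features of the lineages were checked. The J cluster of the TRB matched the constant segment named in the file in 580 of 580 lineages. In 546 lineages all cells had 1 clonotype number in the deposited files, and 34 were split over several. A TRB that differed by 1 base was present in the same library for 19 lineages, 4 of them sharing a TRA. For 101 lineages the same TRB also lay on barcodes left out by the rule, 305 barcodes with 2 or more TRB chains and 58 without a TRA, and 150 of the former were in LNP-P20-mAb 1. Cells with 1 or 2 TRB UMIs made up 28 of the 1409 members (1.99%).

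Invariant T cells were rare in small lineages and in all usable cells. iNKT cells, which recognise lipids, carry TRAV11 joined to TRAJ18, and 0 of 1409 member cells did, against 56 of 19115 usable cells (0.293%). A bound of 0.213% for the members holds only if cells are independent. Cells of a lineage mostly share their TRA, so the true bound is wider and no difference can be read from the 0. MAIT cells, which recognise vitamin B metabolites, carry TRAV1 joined to TRAJ33, and 1 member did (0.071%), against 17 usable cells (0.089%). That cell (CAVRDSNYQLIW) was in a TRBV19 lineage of LNP-Ctrl 2 whose other cell had a different TRA. The joint name TRBV12-2+TRBV13-2 was kept as the files give it, as 99.9% of its chains have the same CDR1 loop.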

How the data were processed

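Assembled TCR chains of 6 libraries were analysed. Per the submitters' processing notes, Cell Ranger 8.0.1 was used, and the builds named there carry no stated use, so positions are not given. The deposited values are raw counts of reads and UMIs per chain, and the calling of cells and chains was the authors'. A chain missed before deposit splits or shrinks a lineage here. Productive chains were used, with repeats of a chain on the same barcode taken as 1. Candidate doublets, that is, cells with over 1 TRB or over 2 TRA chains, were left out. Libraries were assigned by title. The members and segment lists were chosen with earlier results of these data known.

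Single values were compared with two-sided exact permutation tests over 20 assignments of libraries, or 64 sign flips of within-library differences, with Benjamini-Hochberg adjustment within a family. Segments with 10 or more small lineages were tested with edgeR 4.0.16 in R 4.3.3 on lineage counts, with the number of lineages (TRA: of shared chains) as library size. The SE is the log2 difference divided by the square root of F. DESeq2 1.42.0 was an alternative. The script for segments was first tested on simulated data. Usual V and J ends were taken from the chains, base by base while at least 60% of 30 or more chains agreed. Segments named are those past the threshold, the 3 highest and lowest TRBV and TRAV and the 2 highest and lowest TRBJ and TRAJ between treatments, and the listed ones. Python 3.11.15 served for all else (pandas 2.3.3, numpy 2.4.6, matplotlib 3.10.9). Alternatives covered normalization, filters, the counted unit, the lineage definition, barcodes with 2 TRB chains, UMI minimum, each library left out, LNP-P20-mAb 1 and 2 as 1 sample and a replicate block.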

Additional observations from a re-analysis of the deposited data

Results flagged for a closer look

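In LNP-P20-mAb 2 the share of receptors with no named D segment was 86.0% in small lineages and 75.9% in receptors of 1 cell, a difference of 10.1 percentage points, while the other 5 libraries lay between -4.90 and 0.231 points. It was singled out because its gap to the next library was 0.659 of the whole range, above Dixon's 95% critical value for 6 values. Of 17 such sets of within-library differences, 1 was singled out, and chance alone does so in about 1 of 20.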

How the results depend on the processing

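Over 29 results, 331 alternative values were computed. Of these, 285 were counted as keeping direction and side of the threshold. A further 18 kept direction but no longer passed, and 28 had the opposite sign, 16 of them on leaving out 1 library. None newly passed, but many could not. For measures compared between treatments the smallest exact permutation p is 0.1. On leaving out 1 library the smallest exact sign-flip p is 0.0625. Both lie above 0.05, so for such values the side of the threshold is no check. Results that are counts of called segments have no direction. The 18 concern TRAV9-2, the alike receptors and the TRB UMI ratio. With cells counted in place of lineages, or without receptors of TRBV10, TRBJ2-3 and TRAJ27, 0 segments passed against receptors of 1 cell (edgeR; unadjusted 5 and 10), and the cause was not tested. TRAV9-2 was called under every other setting run, including DESeq2 (log2 1.45, adjusted p = 0.00455), and leaving out each library in turn gave 1.43 to 1.56. The excess of alike receptors was 5.20 to 7.13 points on leaving out a library and 6.79 with LNP-P20-mAb 1 and 2 averaged, and the UMI ratio difference -0.22 to -0.18, and -0.20 with those averaged. With 5 values the smallest exact p is 0.0625, so these could not pass.

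The results whose sign turned were all far from the threshold, and the cause was not tested. With lineages of 2 cells only, the share of cells with 2 TRA chains differed by -6.30 points between treatments, -0.929 against receptors of 1 cell and -1.26 against larger lineages, and the TRBJ2 share by 0.183 between treatments and 1.24 against larger lineages. With barcodes of 2 TRB chains kept, the treatment difference in 2-TRA cells was -0.612 and the TRBJ2 share against larger lineages 1.22. That TRBJ2 difference was 0.164 with a minimum of 2 UMIs and 0.312 with LNP-P20-mAb 1 and 2 averaged, which also gave a CDR3 length difference of 0.000438 bases. With lineages formed by amino acids, the share without a named D differed by 0.345 from receptors of 1 cell and 0.752 from larger lineages.

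Leaving out 1 library moved several differences across 0. Between treatments, the share of cells with 2 TRA chains ranged from -2.98 to 4.32 points and the log2 UMI ratio from -0.052 to 0.032. Against receptors of 1 cell, CDR3 length ranged from -0.165 to 0.00368 bases, TRBJ2 from -0.0672 to 3.48 points and no named D from -2.64 to 0.370. Against larger lineages the ranges were -1.62 to 6.29 points for 2 TRA chains, -0.285 to 0.0495 bases for CDR3 length, -3.51 to 1.35 points for TRBJ2 and -2.99 to 2.43 for no named D.

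The replicate numbers of the labels were not taken as pairs. Same-numbered libraries correlated in their segment deviations at 0.0761, 0.129 and 0.0479, and numbers 1 and 2 but not 3 correlated best with their own number. With a replicate block, 0 segments passed between treatments (edgeR, 6 unadjusted, lowest adjusted p = 0.296). The differences of the 8 measures, such as 1.20 points for a TRA in all cells, cannot change with such a block and are no check. Depth limits single segments, as many shares rest on fewer than 10 chains per library.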
